A study of Mus musculus with 6 samples.

Results

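GABA-A receptors are ligand-gated chloride channels, and the genes described here encode 7 of their subunits: the alpha subunits Gabra2, Gabra3, Gabra4 and Gabra5, the gamma subunits Gabrg1 and Gabrg3, and the delta subunit Gabrd. They were chosen by name from the 24841 genes of the deposited table and were followed in every class of nuclei and in both genotypes. The table holds 48834 nuclei from dissected, flash-frozen mouse striatum, in 6 libraries made with the 10X Genomics droplet method: 3 from wild-type mice and 3 from mice heterozygous for Celsr3, an atypical cadherin. The labels call the libraries biological replicates and give no strain, age, sex or number of mice per library, and they do not say how the Celsr3 allele was made. After 801 doublet-like nuclei were left out, 48033 nuclei remained, with 7611 to 8711 in each library. The values are the authors' depth-corrected transcript values, rounded to whole numbers, and a level below is the mean of these values per nucleus. A mean of the 6 libraries is given with the SD between libraries.

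As background, a GABA-A receptor is built of several subunits around a chloride pore, most often alpha and beta subunits with a gamma or a delta subunit. The alpha subunit and the gamma or delta subunit largely set where a receptor sits and how it responds. Receptors with gamma subunits are found at synapses in large part. Receptors that pair alpha4 with delta lie outside synapses and carry a tonic current in striatal neurons. The striatum is made mainly of medium spiny neurons (MSNs), inhibitory neurons that carry either the D1 or the D2 dopamine receptor and signal with GABA themselves. Alpha3 and gamma1 are known for a narrow distribution in the brain, and gamma1 is found in glia as well as in neurons.

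The genes lie in 4 places of the mouse genome (GRCm38, GENCODE annotation). Gabrg1 (chr5:70751047-70842617), Gabra2 (chr5:70957597-71095849) and Gabra4 (chr5:71569749-71658308) stand in a row on the minus strand of chromosome 5. Gabrg3 (chr7:56716465-57387188) and Gabra5 (chr7:57407672-57510059) are neighbours on the minus strand of chromosome 7. Gabra3 (chrX:72432681-72656848) is X-linked, and Gabrd (chr4:155384980-155398112) lies apart on chromosome 4, both on the minus strand. Gene lengths ran from 13.1 kb for Gabrd to 671 kb for Gabrg3, so levels were compared between classes within a gene and not between genes. Gabra4 overlaps Gabrb1 head to head over 0.196 kb. Whether the counting used strand is not given in the sources used here, so reads of genes that overlap on opposite strands may not be told apart.

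The neighbours Gabra2 and Gabrg1 are shown by the 250 bases before their start sites, because their levels below are highest in different classes of nuclei, although both are high in astrocyte-like nuclei. The sequences are those of RefSeq (GRCm38.p6), on the minus strand and written 5′ to 3′. Capitals mark the GC box, searched as GGGCGG on both strands. The windows are chr5:71095850-71096099 for Gabra2 and chr5:70842618-70842867 for Gabrg1.
Gabra2: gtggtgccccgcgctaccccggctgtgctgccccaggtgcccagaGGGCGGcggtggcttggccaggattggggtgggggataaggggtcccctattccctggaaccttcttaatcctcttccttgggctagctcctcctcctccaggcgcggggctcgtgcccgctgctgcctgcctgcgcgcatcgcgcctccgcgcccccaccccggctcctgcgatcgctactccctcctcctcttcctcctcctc
Gabrg1: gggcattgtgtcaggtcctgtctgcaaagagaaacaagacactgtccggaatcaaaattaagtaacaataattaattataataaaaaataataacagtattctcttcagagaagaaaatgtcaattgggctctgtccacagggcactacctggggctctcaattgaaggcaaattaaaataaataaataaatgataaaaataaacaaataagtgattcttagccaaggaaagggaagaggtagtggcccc
The Gabra2 window had 70.0% G and C, 18 CpG dinucleotides and 1 GC box. The Gabrg1 window had 35.6% G and C, 1 CpG and 0 GC boxes. Across all 32851 RefSeq windows of the same length the median was 52.4% G and C with 6 CpG, and 32.7% of them held a GC box. Among the others, Gabra4 had 2 GC boxes and 61.2% G and C, Gabrg3 had 1 and 60.4%, and Gabra5 had 0 and 56.4%. The 2 windows of Gabra3 had 39.2% and 42.4% G and C, 0 CpG and 0 GC boxes. RefSeq windows were matched for 6 of the 7 genes, all but Gabrd. A match of letters is a description of the window and not a site of binding.

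Nuclei were clustered without any GABA-A subunit gene and classes were named by markers. The D1 MSN-like class (8453 nuclei) had a mean Drd1 level of 1.03 ± 0.117 (SD, n = 6) against 0.111 ± 0.0180 in the D2 MSN-like class (7159 nuclei), and Drd2 was 0.0766 ± 0.00947 and 4.0 ± 0.287 in the same order. The eccentric MSN-like class (1171 nuclei), a small MSN type, was marked by Otof at 1.61 ± 0.301 and Casz1 at 0.801 ± 0.309. The median number of genes detected per nucleus was 2456 in wild-type replicate 1 and 2843 to 3011 in the other libraries. The libraries differed in make-up: glutamatergic neuron-like nuclei were 2.53% to 19.9% of a library, and an unnamed cluster led by Sim1 and Baiap3 (cluster 9) was 0.854% to 11.9%, highest in heterozygous replicate 2. Of the distinct barcodes, 274 occurred in more than 1 library. Celsr3 itself, in D1 MSN-like nuclei, had 0.149 (replicate 1), 0.169 (replicate 2) and 0.176 (replicate 3) in wild type against 0.0792, 0.101 and 0.10 in heterozygotes, so the groups did not overlap and followed their labels. Its change was -0.76 ± 0.13 (SE) on the log2 scale, with a limma adjusted p of 0.133 over 13416 genes.

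Levels of the subunit genes differed widely between classes, which are described here without a test because the classes were formed from the same nuclei. Microglia-like nuclei, which are not neurons, serve as the low reference. The source of the values in them was not measured, and they are not the lowest class for every gene, so ratios to them depend on this choice. Transcripts of the MSN genes Drd1 and Rgs9 stood in microglia-like nuclei at 18.4% and 17.8% of the higher MSN-like class, and Drd2 and Tac1 at 3.67% and 46.1%. For the subunit genes this share ran from 6.06% for Gabra5 to 54.4% for Gabrg1, with Gabrd at 12%, Gabrg3 at 15.2%, Gabra4 at 20.8%, Gabra3 at 33.1% and Gabra2 at 41.9%. The median number of genes detected per nucleus was 1898.5 in the microglia-like cluster and 3205 to 3492 in the D1 and D2 MSN-like clusters. The parts of free RNA and of this difference in depth in these levels were not tested. A share of nuclei with a value of 1 or more is not used, because 99.0% of microglia-like nuclei had such a value for Gabrg3 at a mean level of only 1.71.

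**Figure D1:**
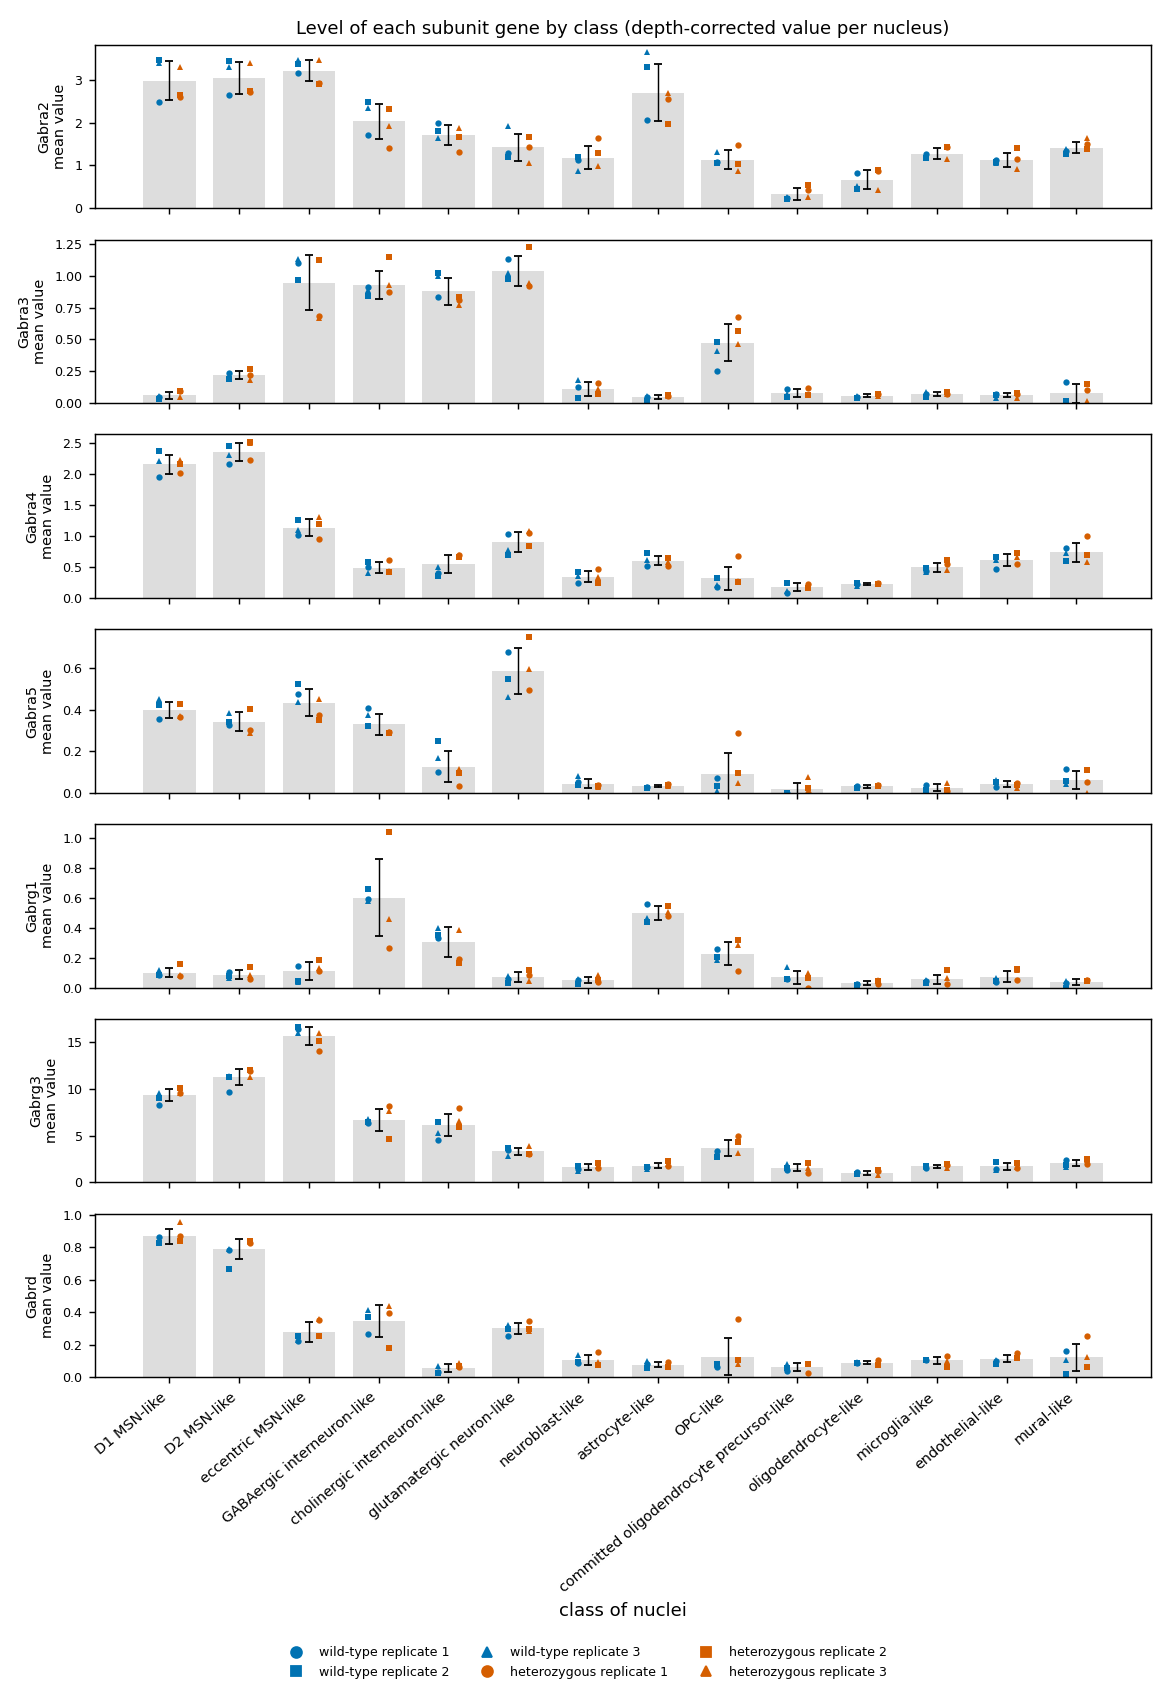
Mean depth-corrected value per nucleus (y axis, linear, a separate scale for each gene) of the 7 subunit genes in 14 classes of nuclei (x axis). Bars are the mean of 6 libraries, error bars the SD between libraries, and points the single libraries; Gabra4 and Gabrd are highest in D1 and D2 MSN-like nuclei, Gabrg3 in all 3 MSN-like classes, Gabra3 outside D1 and D2 MSN-like nuclei, and Gabrg1 in GABAergic interneuron-like and astrocyte-like nuclei.

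Gabra4, which encodes an alpha subunit of tonic receptors, was highest of the 14 named classes in the main MSN classes. Its level was 2.36 ± 0.146 in D2 and 2.15 ± 0.151 in D1 MSN-like nuclei (SD, n = 6), 4.82 and 4.40 times the microglia-like level of 0.489 ± 0.0764. The lowest D1 library (1.95) stood above the highest eccentric MSN-like library (1.30), and this was the single break between neighbours in the order of the 14 classes. Eccentric MSN-like nuclei had 1.13 ± 0.139 and glutamatergic neuron-like nuclei 0.906 ± 0.161. GABAergic interneuron-like nuclei, at 0.487 ± 0.0885, did not differ from microglia-like nuclei beyond the spread between libraries, but were 2.16 times the oligodendrocyte-like level of 0.226, which D2 and D1 MSN-like nuclei exceeded with ratios of 10.4 and 9.54. In each of the 6 libraries Gabra4 was lower in D1 than in D2 MSN-like nuclei, by a mean of -0.13 ± 0.065 (SD) on the log2 scale.

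Gabrd encodes the delta subunit, the usual partner of alpha4 in tonic receptors, and it followed nearly the same classes. Its level was 0.868 ± 0.0474 in D1 and 0.791 ± 0.0627 in D2 MSN-like nuclei, 8.33 and 7.59 times the microglia-like level of 0.104 ± 0.0221. The single break in its order came below these classes, above GABAergic interneuron-like nuclei at 0.345 ± 0.0988. D1 MSN-like nuclei were higher than D2 MSN-like nuclei in 6 of 6 libraries, by 0.13 ± 0.10 on the log2 scale, the opposite order to Gabra4. Eccentric MSN-like nuclei had 0.278 ± 0.0614, and cholinergic interneuron-like nuclei were lowest of the 14 classes at 0.0580 ± 0.0246. Among interneurons the Pvalb/Pthlh interneuron-like nuclei (cluster 25, 513 nuclei) were highest at 0.552 ± 0.0897, with the 6 libraries between 0.425 and 0.683. The cluster led by Vip and Adarb2 (cluster 8) had 0.159 ± 0.0692, below every Pvalb/Pthlh library.

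Gabra2, an alpha subunit of synaptic receptors, was high in the MSN classes and in astrocyte-like nuclei. Its level was 3.21 ± 0.253 in eccentric MSN-like, 3.03 ± 0.372 in D2 MSN-like, 2.98 ± 0.456 in D1 MSN-like and 2.70 ± 0.668 in astrocyte-like nuclei. Neighbours in this order overlapped in every case down to endothelial-like nuclei, at 1.12 ± 0.161, which stood above oligodendrocyte-like nuclei at 0.661 ± 0.222. Microglia-like nuclei had 1.27 ± 0.134, so the highest class was 2.53 times the low reference. Among glutamatergic neuron-like clusters the level was 0.518 ± 0.167 in cluster 23 and 2.49 ± 0.309 (n = 5) in cluster 31, a difference within 1 class.

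The same 3 libraries had the highest Gabra2 levels in the MSN-like and astrocyte-like classes, and they came from both genotypes. In D1 MSN-like nuclei the wild-type libraries had 2.48 (replicate 1), 3.46 (replicate 2) and 3.40 (replicate 3), against 2.59, 2.63 and 3.30 for the heterozygous replicates in that order. In D2 MSN-like nuclei the same libraries gave 2.63, 3.43, 3.29, 2.72, 2.74 and 3.39. Wild-type replicates 2 and 3 and heterozygous replicate 3 were the 3 highest libraries in both classes, and the lowest of these was 1.25 and 1.20 times the highest of the others. The same 3 libraries were highest in eccentric MSN-like nuclei, between 3.36 and 3.46 against 2.90 to 3.17, and in astrocyte-like nuclei. In oligodendrocyte-like nuclei these libraries were the 3 lowest: wild-type replicates 1, 2 and 3 had 0.822, 0.452 and 0.519, and the heterozygous replicates 0.862, 0.899 and 0.414. The 3 lowest in MSN-like nuclei were the 3 highest there by 1.58 times, and they were also the 3 highest in microglia-like and endothelial-like nuclei, by 1.08 and 1.03 times. Over the 14 classes, wild-type replicates 2 and 3 and heterozygous replicate 3 were the 3 highest in 4 and the 3 lowest in 3. The other 7 classes, among them glutamatergic neuron-like and GABAergic interneuron-like nuclei, had other orders. The 3 libraries that were highest in MSN-like nuclei include both genotypes, and so do the other 3. Their median genes per nucleus, 2917.5, 2843 and 2859, lay between 2456 and 3011, the values of wild-type replicate 1 and heterozygous replicate 2. The 3 libraries were singled out after their values were seen, and the 3 highest of any 6 libraries lie above the rest by that choice. All classes come from the same 6 libraries. How many other genes show this order was not counted, and the cause of the difference was not tested.

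**Figure D2:**
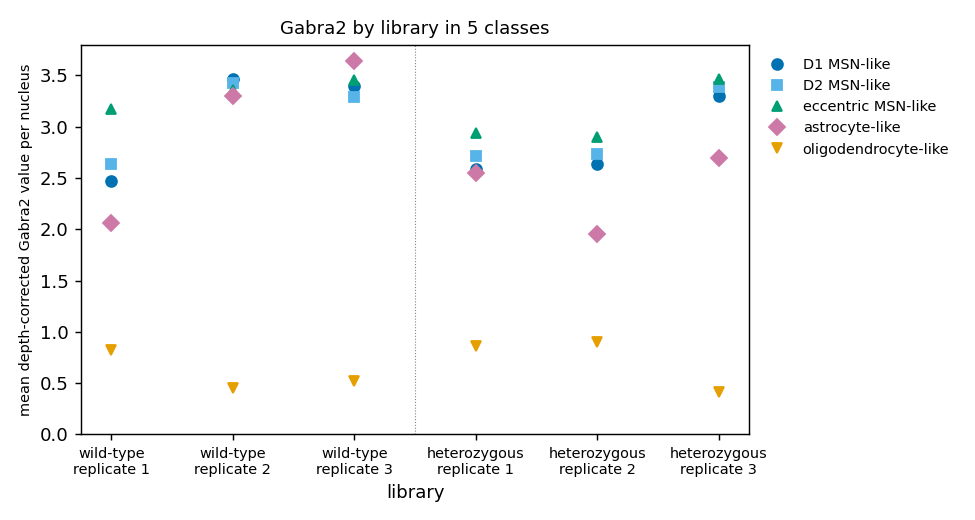
Mean depth-corrected Gabra2 value per nucleus (y axis, linear) in each of the 6 libraries (x axis) for 5 classes of nuclei. D1 and D2 MSN-like nuclei of wild-type replicates 2 and 3 and heterozygous replicate 3 lie between 3.29 and 3.46 and those of the other libraries between 2.48 and 2.74, while oligodendrocyte-like nuclei show the reverse order.

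Gabra3 was low in the main MSN classes and high in the other neurons. It was highest in glutamatergic neuron-like nuclei at 1.04 ± 0.120, followed by eccentric MSN-like (0.948 ± 0.218), GABAergic interneuron-like (0.932 ± 0.110) and cholinergic interneuron-like nuclei (0.880 ± 0.105), and these neighbours overlapped. In wild-type libraries alone the first place passed to eccentric MSN-like nuclei, at 1.07 ± 0.0854. A break lay between cholinergic interneuron-like nuclei and the next class, oligodendrocyte precursor cell (OPC)-like nuclei at 0.476 ± 0.144. The lowest eccentric MSN-like library (0.670), however, lay just under the highest OPC-like library (0.679). D2 MSN-like nuclei had 0.217 ± 0.0318, which is 3.02 times the microglia-like level of 0.0717 ± 0.0140. D1 MSN-like nuclei had 0.0622 ± 0.0275, which is 0.868 times the microglia-like level, so no Gabra3 above the low reference was seen in that class as a whole. The D1 level was below the D2 level in 6 of 6 libraries, by a mean of -1.72 ± 0.42 on the log2 scale. An unnamed cluster led by Ush1c and Avp (cluster 18, with 0 nuclei in heterozygous replicate 1) had the level 3.00 ± 0.287 (n = 5), and its Gabra2 level was 0.481 ± 0.214.

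Gabra5, an alpha subunit of receptors outside synapses, was highest in neurons. Astrocyte-like and oligodendrocyte-like nuclei were near the low reference, at 1.33 and 1.28 times. OPC-like nuclei had 0.0893 ± 0.101, with 0.286 in heterozygous replicate 1, which had 28 such nuclei, and 0.00690 to 0.0938 in the other libraries. Glutamatergic neuron-like nuclei had 0.588 ± 0.110, eccentric MSN-like 0.434 ± 0.0643, D1 MSN-like 0.398 ± 0.0397, D2 MSN-like 0.341 ± 0.0458 and GABAergic interneuron-like nuclei 0.330 ± 0.0498. These 5 classes were 13.7 to 24.4 times the microglia-like level of 0.0241 ± 0.0155, and a break separated them from cholinergic interneuron-like nuclei at 0.126 ± 0.0747. D1 was above D2 in 6 of 6 libraries, by 0.22 ± 0.11 on the log2 scale. Within the glutamatergic class cluster 23 had 0.818 ± 0.221 and cluster 11 had 0.290 ± 0.139, so the order of these clusters was the reverse of that for Gabra2, which was 0.518 and 1.41 in the same clusters.

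Gabrg1 was highest in a neuronal and a glial class. GABAergic interneuron-like nuclei had 0.598 ± 0.257 and astrocyte-like nuclei 0.499 ± 0.0475, which are 11.0 and 9.16 times the microglia-like level of 0.0544 ± 0.0322. The break in the order lay between astrocyte-like and cholinergic interneuron-like nuclei, at 0.303 ± 0.103. GABAergic interneuron-like nuclei, with 0.265 in their lowest library, overlapped the cholinergic interneuron-like nuclei, whose highest library had 0.40. Interneuron clusters differed in level: cluster 8 had 1.01 ± 0.392, Sst/Npy/Nos1 interneuron-like nuclei 0.525 ± 0.268 and Pvalb/Pthlh interneuron-like nuclei 0.121 ± 0.0550. The spread between libraries was wide within each of them, and heterozygous replicate 2 was highest in all 3. Cluster 9, which has no class name, had 1.06 ± 0.257. In D1, D2 and eccentric MSN-like nuclei it was 0.10 ± 0.0298, 0.0870 ± 0.0303 and 0.109 ± 0.0589. Heterozygous replicate 2, the library with the most nuclei of cluster 9, had the highest Gabrg1 level in D1 MSN-like (0.154), D2 MSN-like (0.139), GABAergic interneuron-like (1.04) and microglia-like nuclei (0.115), and also in eccentric MSN-like, glutamatergic neuron-like, OPC-like and endothelial-like nuclei. It was not the highest in the remaining 6 classes, among them astrocyte-like nuclei (0.545 against 0.560 in wild-type replicate 1), and was the lowest in cholinergic interneuron-like nuclei (0.163). The part of that cluster's RNA in the other classes was not tested.

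Gabrg3, the other gamma subunit, was highest in the MSN classes and graded among them. Eccentric MSN-like nuclei had 15.7 ± 0.961, D2 MSN-like 11.3 ± 0.842 and D1 MSN-like 9.34 ± 0.649, against 1.71 ± 0.172 in microglia-like nuclei. Eccentric MSN-like nuclei (lowest library 14) did not overlap D2 MSN-like nuclei (highest 12). D1 was below D2 in 6 of 6 libraries, by a mean of -0.27 ± 0.044 on the log2 scale, although the ranges of both classes overlapped. GABAergic interneuron-like nuclei followed at 6.68 ± 1.21 and cholinergic interneuron-like nuclei at 6.12 ± 1.17. OPC-like nuclei, at 3.63 ± 0.857, overlapped glutamatergic neuron-like nuclei at 3.31 ± 0.413, and a break lay below them.

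The MSN-like classes were themselves graded, and 3 of the genes set their clusters apart. D1 MSN-like nuclei fell into clusters 6, 5 and 28 and D2 MSN-like nuclei into clusters 1, 2 and 21. Clusters 28 and 21 shared 5 of their 10 leading genes (9230009I02Rik, Gm16083, Gm49906, Myo3b and Zp3r), and no other D1 and D2 pair shared any. Gabrg3 was highest in this pair: 12 ± 0.749 in cluster 28 against 8.64 ± 0.574 in cluster 6, and 14.4 ± 0.839 in cluster 21 against 9.76 ± 0.746 in cluster 1, without overlap in either case. Gabra3 was high in cluster 21 of this pair alone. It was 0.596 ± 0.0850 there, which is 8.07 times the level of cluster 1, while cluster 28, at 0.0308 ± 0.0134, overlapped cluster 6 and lay below the microglia-like level. Cluster 5, led by Pdyn, was the highest D1 cluster for Gabra3 at 0.115 ± 0.0658, where wild-type libraries had 0.0625, 0.0577 and 0.116 against 0.214, 0.173 and 0.0659 for heterozygous libraries.

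Gabrg1 marked a different pair of clusters. It was 0.220 ± 0.0772 in cluster 5 (D1) and 0.157 ± 0.0407 in cluster 2 (D2), against 0.0375 to 0.0603 in clusters 1, 6, 21 and 28. The lowest library of cluster 5 stood above the highest of the other D1 clusters, and the lowest library of cluster 2 above the highest of the other D2 clusters. Gabra4 was lowest in the same pair, at 1.85 ± 0.173 in cluster 5 and 2.16 ± 0.141 in cluster 2, 1.27 and 1.16 times below the highest cluster of the class. Gabra2, Gabra5 and Gabrd differed by 1.16 to 1.54 times between the highest and lowest MSN-like clusters of a class. The clusters were formed from the same nuclei, so these levels are descriptions.

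**Figure D3:**
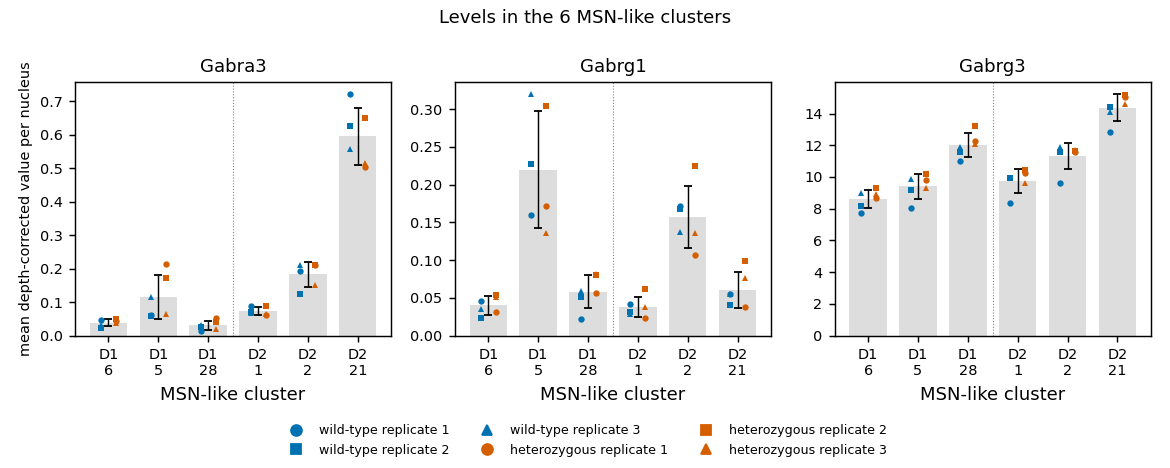
Mean depth-corrected value per nucleus (y axis, linear) of Gabra3, Gabrg1 and Gabrg3 in the 3 D1 and 3 D2 MSN-like clusters (x axis, cluster numbers). Bars are the mean of 6 libraries, error bars the SD and points the libraries; Gabra3 is highest in D2 cluster 21 (0.596), Gabrg1 in clusters 5 (0.220) and 2 (0.157), and Gabrg3 in clusters 28 (12) and 21 (14.4).

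The genes were compared across the 14 classes by Pearson correlation of their log2 levels, a description over 14 points that share libraries and depth. Gabra2, Gabra4, Gabra5, Gabrg3 and Gabrd formed a loose group, with 0.634 (Gabra2 with Gabrd) or more for every pair among them. Gabra3 had 0.699 with Gabra5 and 0.161 with Gabra4. Gabra5 with Gabrg3, neighbours on chromosome 7, had 0.857, Gabra2 with Gabra4 0.840, Gabra5 with Gabrd 0.821 and Gabra4 with Gabrd 0.817. Gabrg1 had 0.431 with its neighbour Gabra2, 0.053 with Gabra4, the next gene along chromosome 5, and 0.030 with Gabrd. Among 13426 genes, the most alike patterns were those of Gria1, Ssbp2 and Arhgap26 for Gabra2 (0.941, 0.936 and 0.902), of Fam155a, Thsd7b and Vwc2l for Gabra3 (0.956, 0.948 and 0.940), and of Lyst, Kif27 and Rasgef1a for Gabra4 (0.954, 0.942 and 0.942). Those for Gabra5 were Spag6l, Gm10419 and Gm49127 (0.980, 0.975 and 0.974), and those for Gabrg1 were Vegfb, Caskin1 and Zim1 (0.909, 0.896 and 0.894). Those for Gabrg3 were Gpr149, Slc2a13 and Rragd (0.963, 0.963 and 0.954), and those for Gabrd were Gm26713, A730090N16Rik and Kcnip2 (0.985, 0.974 and 0.960). An unnamed cluster led by Trpm6 and Lhx9 (cluster 33, with 0 nuclei in heterozygous replicate 1) also held Gabra4 and Gabrd together, at 4.96 ± 1.13 and 1.10 ± 0.440 (n = 5), means above those of every named class. Its lowest Gabra4 library (3.51) stood above every D1 and D2 MSN-like library, while its Gabrd libraries overlapped them.

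The genotype comparison asked whether heterozygosity for Celsr3 moved any of these genes, in all nuclei and within each class, with limma on the log2 library means. No subunit gene passed an adjusted p of 0.05 in any of 17 populations, over 87 changes tested. The lowest adjusted p among them was 0.4998, for Gabra3 in D1 MSN-like nuclei. The background was as sparse: 0% of 14402 genes were called in all nuclei, 0.0149% of 13416 in D1 MSN-like nuclei (2 genes) 0.00783% of 12770 in D2 MSN-like nuclei (1 gene) and 0.00219% over the other 14 populations pooled (2 calls), by limma with Benjamini-Hochberg adjustment. At an unadjusted p under 0.05, 1 of the 21 changes in all, D1 and D2 MSN-like nuclei stood out, beside 9.92% of all genes in all nuclei, 9.75% in D1 and 8.68% in D2 MSN-like nuclei, and 7 of 66 in the other populations, beside 5.36% of their gene tests pooled. Of the genes with such a p in all, D1 and D2 MSN-like nuclei 63.0%, 56.7% and 47.6% were higher in the heterozygous libraries, in the same order, and 28%, 31.9% and 29.6% after size-factor scaling, which moved the median change of all genes in D1 MSN-like nuclei from 0.06 to -0.00029. Without wild-type replicate 1, 214 genes were called in D1 and 121 in D2 MSN-like nuclei, and 0 of the 7 subunit genes were among them. A difference that misses the threshold is not shown to be absent, and the 95% intervals below give the sizes that remain possible.

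In all nuclei, where the share of each class enters the mean, the 7 changes ran from -0.02 for Gabra2 (95% interval -0.32 to 0.29) to 0.40 for Gabrg1 (-0.37 to 1.16) on the log2 scale, with a median of 0.14 beside 0.07 over all genes. The groups overlapped for all 7 genes, where 19.3% of all genes did not overlap. Gabrg1 was at 0.186, 0.140 and 0.168 in wild type against 0.124, 0.335 and 0.249 in heterozygotes, and its highest 2 libraries were also those with the largest shares of cluster 9, 11.9% and 7.26%. Without heterozygous replicate 2 its change was 0.10, without heterozygous replicate 1 it was 0.78, and with equal cluster weights it was 0.011. The equal weights left out clusters with fewer than 10 nuclei in any library. The part of the make-up of the libraries in this change was not tested.

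In D1 MSN-like nuclei Gabra3 gave the largest change of the 7. The wild-type libraries had 0.0481 (replicate 1), 0.0327 (replicate 2) and 0.0554 (replicate 3), against 0.0966, 0.0963 and 0.0442 for the heterozygous replicates in that order. Replicates 1 and 2 of the heterozygous group stood above every wild-type library, and replicate 3 lay within the wild-type range. The change was 0.64 ± 0.28 (SE; 95% interval 0.02 to 1.27), with an unadjusted p of 0.0454 and a limma adjusted p of 0.4998. Without heterozygous replicate 3 it was 0.97 (adjusted p 0.256), and with 0.1 in place of 0.01 added to each mean it was 0.29. It concerns a level at or near that of microglia-like nuclei. In D2 MSN-like nuclei, where the level of Gabra3 was higher, the libraries had 0.234, 0.189 and 0.209 in wild type and 0.219, 0.268 and 0.181 in heterozygous mice, which overlapped, with a change of 0.06 ± 0.15 (-0.27 to 0.39; adjusted p 0.940). The difference between the D1 and the D2 change was 0.58 ± 0.19 (limma; unadjusted p 0.00918, adjusted p 0.936 over 12714 genes, of which 0% passed), and 0.24 with 0.1 added to each mean.

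Gabrd, the delta subunit, was the single gene of the 7 whose groups did not overlap in D2 MSN-like nuclei, as for 14.6% of all genes there (9.08% with the heterozygous libraries higher). Wild-type replicates had 0.786, 0.670 and 0.793 and heterozygous replicates 0.826, 0.837 and 0.832. The heterozygous libraries lay close together, all above the highest wild-type library, and replicate 2 of the wild type was the lowest. The change was 0.15 ± 0.084 (-0.04 to 0.34) with a limma adjusted p of 0.664, and without wild-type replicate 2 it was 0.075 (adjusted p 0.936). In D1 MSN-like nuclei Gabrd was 0.864, 0.828 and 0.845 in wild type and 0.869, 0.840 and 0.959 in heterozygous mice, an overlapping change of 0.07 ± 0.076 (-0.10 to 0.24; adjusted p 0.784) that was 0.016 without heterozygous replicate 3. Gabra4 was 1.95, 2.36 and 2.21 in wild-type and 2.02, 2.15 and 2.23 in heterozygous D1 MSN-like libraries, a change of -0.02 ± 0.084 (-0.21 to 0.17; adjusted p 0.941). In D2 MSN-like nuclei Gabra4 had an estimated change of 0.06 ± 0.077 (-0.11 to 0.24; adjusted p 0.866), so for this pair of tonic subunits the intervals in both classes end within 0.35 of 0 on the log2 scale.

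The 2 gamma genes gave overlapping groups in both MSN classes, and in D1 MSN-like nuclei so did all 7 subunit genes, where 16.1% of all genes did not overlap. Gabrg3 was 8.25, 8.97 and 9.59 in wild-type and 9.55, 10.1 and 9.55 in heterozygous D1 MSN-like libraries, and 9.65, 11.3 and 11.4 against 11.9, 12 and 11.3 in D2 MSN-like libraries. Wild-type replicate 1, the library with the fewest genes detected per nucleus, was lowest in both. The changes were 0.13 ± 0.073 (-0.04 to 0.29; adjusted p 0.592) and 0.13 ± 0.079 (-0.05 to 0.30; adjusted p 0.709), and without that library 0.070 and 0.049. Gabrg1 had an estimated change of 0.10 ± 0.24 (-0.44 to 0.64; adjusted p 0.913) and 0.07 ± 0.28 (-0.55 to 0.70; adjusted p 0.969), at levels near the low reference. Without heterozygous replicate 2 both turned negative, to -0.18 and -0.25. Of the alpha genes, Gabra2 had an estimated change of -0.12 ± 0.14 (-0.44 to 0.19; adjusted p 0.796) in D1 and -0.08 ± 0.12 (-0.34 to 0.18; adjusted p 0.895) in D2 MSN-like nuclei, less than the gap between libraries within each genotype. Without wild-type replicate 1 these were -0.28 and -0.20, and without wild-type replicate 2 they were -0.038 and -0.0058. Gabra5 had an estimated change of -0.07 ± 0.11 (-0.32 to 0.17; adjusted p 0.848) and -0.09 ± 0.13 (-0.39 to 0.21; adjusted p 0.896), and ran from -0.17 to -0.0018 in D1 and from -0.24 to 0.0074 in D2 with 1 library left out.

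**Figure D4:**
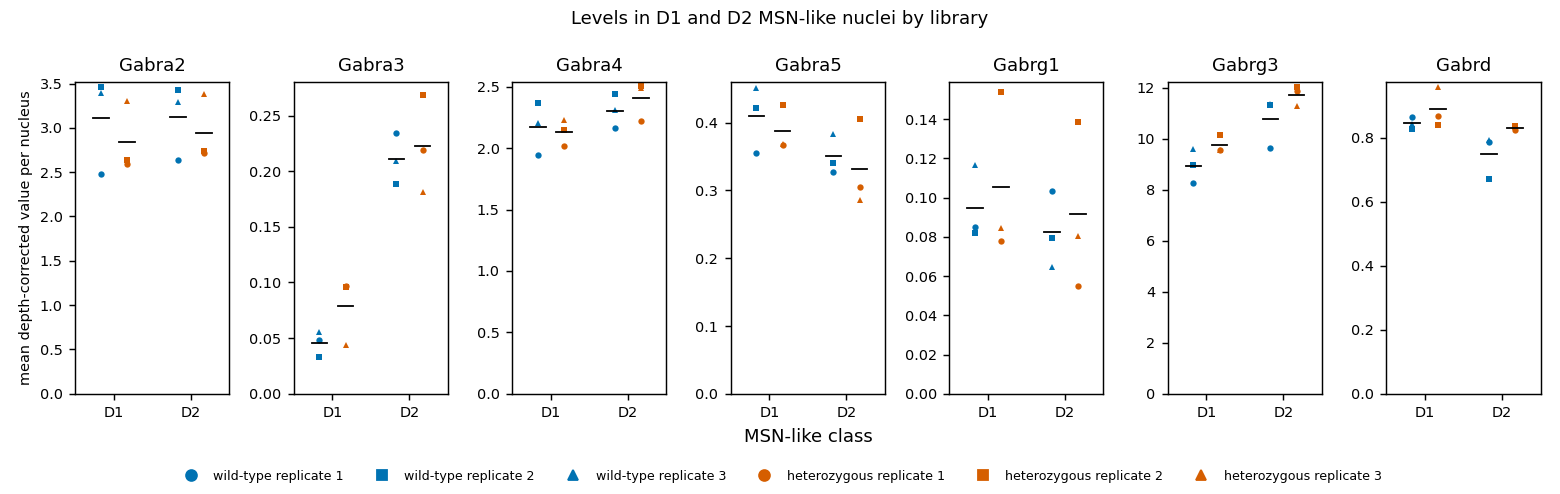
Mean depth-corrected value per nucleus (y axes, linear, a separate scale for each gene) of the 7 subunit genes in D1 and D2 MSN-like nuclei (x axis). Points are libraries, wild type in blue and heterozygous in orange, and black lines group means (n = 3 each); the groups overlap in every panel except Gabrd in D2 MSN-like nuclei.

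Outside the MSN pair, 66 changes could be tested in 14 populations and ranged from -0.65 to 0.68 on the log2 scale. The lowest was Gabrd in Sst/Npy/Nos1 interneuron-like nuclei, with 0.0513 in heterozygous replicate 2 against 0.442 and 0.467 in replicates 1 and 3. It ran from -1.16 to 0.32 over the alternatives. The highest was Gabra4 in OPC-like nuclei, with 0.679 in heterozygous replicate 1, and ran from 0.24 to 0.92. Of the 66 changes, 7 (10.6%) had an unadjusted limma p under 0.05, as given above beside the 5.36% of all gene tests. Groups without overlap were also 7 of the 66, beside 10.7% of all gene tests. Gabra3 appeared most often. It was higher in every heterozygous than in every wild-type library in astrocyte-like, oligodendrocyte-like, Pvalb/Pthlh interneuron-like and Sst/Npy/Nos1 interneuron-like nuclei, with changes of 0.55 ± 0.29, 0.41 ± 0.16, 0.38 ± 0.16 and 0.23 ± 0.13 (SE). The astrocyte-like change was 0.17 without wild-type replicate 2 (0.0171, against 0.0469 and 0.0535 in the other wild-type libraries), and with 0.1 added to each mean the first pair of changes was 0.19 and 0.17. In the same order, 7.24%, 6.03%, 6.77% and 3.93% of all genes were higher without overlap. The first pair of classes had Gabra3 levels under that of microglia-like nuclei. In Pvalb/Pthlh interneuron-like nuclei it was 0.667, 0.608 and 0.627 in wild type and 0.818, 0.938 and 0.733 in heterozygous mice (95% interval of the change 0.04 to 0.71; unadjusted p 0.0314, limma adjusted p 0.731). In GABAergic interneuron-like nuclei as a whole, which hold both interneuron clusters, the groups overlapped, with a change of 0.14 ± 0.12 (adjusted p 0.950; 0.029 without heterozygous replicate 2). The change of Gabra3 had the other sign in cholinergic interneuron-like nuclei at -0.23 ± 0.19 (adjusted p 0.973), in glutamatergic neuron-like nuclei at -0.03 ± 0.14 (adjusted p 0.993; positive without wild-type replicate 1 or heterozygous replicate 1 or 3) and in eccentric MSN-like nuclei. In the last of these it was -0.41 ± 0.19 (-0.83 to 0.02; adjusted p 0.928; -0.65 without heterozygous replicate 2), with 1.10, 0.971 and 1.13 in wild type and 0.684, 1.13 and 0.670 in heterozygous mice, which overlapped. In OPC-like nuclei, of which heterozygous replicate 1 had 28, it was 0.60 ± 0.26 (0.02 to 1.18; adjusted p 0.910), again with overlap, and 0.34 without wild-type replicate 1.

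Among the remaining changes, Gabra5 in GABAergic interneuron-like nuclei was 0.408, 0.324 and 0.372 in wild type and 0.292, 0.290 and 0.292 in heterozygous mice. All 3 heterozygous libraries lay below the wild-type range, as for 6.52% of genes in this class. The change was -0.32 ± 0.12 (-0.59 to -0.05; unadjusted p 0.0246, limma adjusted p 0.662). The clusters of this class differ in Gabra5, at 0.517 in cluster 8, 0.276 in Pvalb/Pthlh and 0.175 in Sst/Npy/Nos1 interneuron-like nuclei, and the groups overlapped within each of the 3. The Sst/Npy/Nos1 interneuron-like nuclei were 251 of 438 in heterozygous replicate 1 and 78 of 338 in heterozygous replicate 2, and the part of this make-up in the change was not tested. Gabrg3 in astrocyte-like nuclei was 1.61, 1.65 and 1.48 in wild type and 1.79, 2.26 and 1.94 in heterozygous mice, higher in all 3, as for 7.24% of genes. Its change was 0.33 ± 0.11 (0.10 to 0.57; unadjusted p 0.0102, adjusted p 0.584), at a level beside the 1.71 of microglia-like nuclei. Gabrd in eccentric MSN-like nuclei was 0.221, 0.254 and 0.230 against 0.351, 0.252 and 0.360, overlapping through heterozygous replicate 2, with a change of 0.42 ± 0.19 (0.01 to 0.83; adjusted p 0.928). Gabrg1 in oligodendrocyte-like nuclei had an estimated change of 0.59 ± 0.24 (0.05 to 1.12; adjusted p 0.835) at its lowest level of the 14 classes, 0.0310 ± 0.0133, with overlap, and of 0.19 with 0.1 added to each mean. Gabra2 in mural-like nuclei, at 1.33, 1.26 and 1.37 against 1.49, 1.39 and 1.63, had an estimated change of 0.19 ± 0.17 (-0.18 to 0.55; adjusted p 0.968) without overlap, as for 6.99% of genes in that direction.

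**Figure D5:**
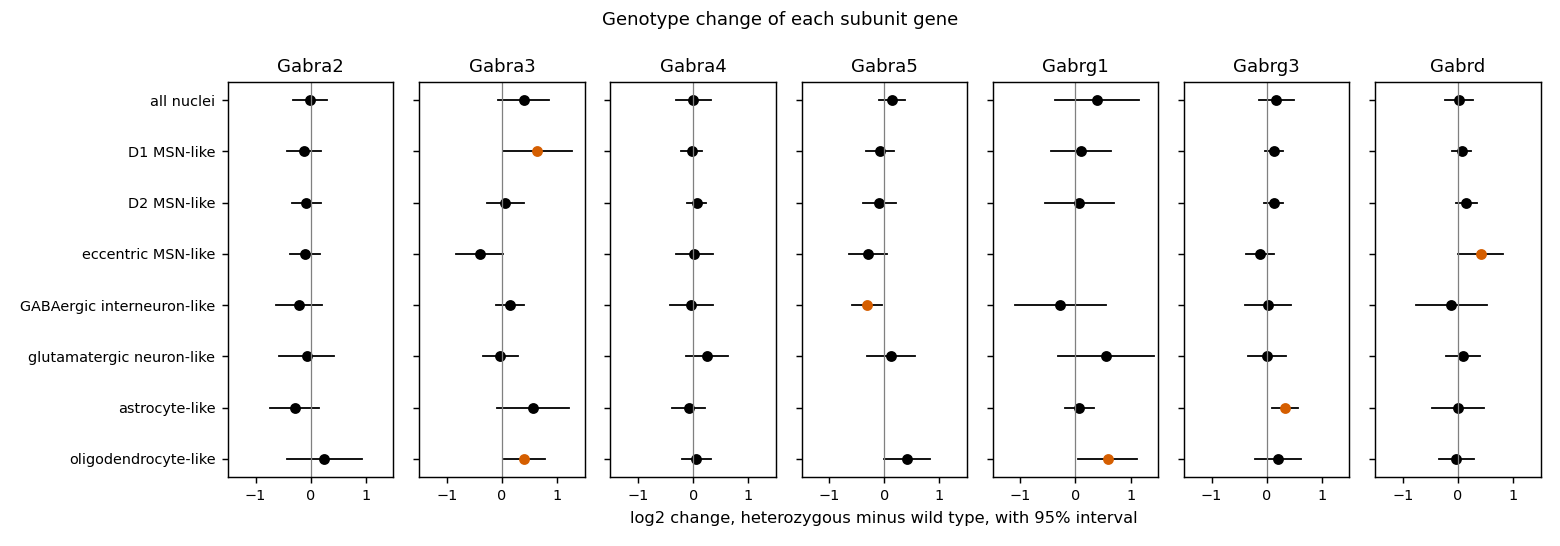
Log2 change of the 7 subunit genes, heterozygous minus wild type (x axis, with bars for the 95% interval), in 8 populations of nuclei (y axis). Orange points have an unadjusted p under 0.05 and none passes the adjusted threshold of 0.05. A missing point did not pass the filter on mean and summed value, which also depends on the number of nuclei.

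The other genes of GABA signalling were taken from 5 lists: other GABA-A subunits, scaffold and trafficking proteins of inhibitory synapses, the GABA-B receptor, chloride carriers, and GABA synthesis and uptake. In D1 and in D2 MSN-like nuclei 0 of their members passed the adjusted threshold in either direction (limma), and 3 of 42 tested in D1 (7.14%) and 1 of 42 in D2 (2.38%) had an unadjusted p under 0.05, beside 9.75% and 8.68% of all genes. The medians in D1 MSN-like nuclei were 0.05, 0.06, 0.12, 0.08 and 0.16 in the order of the lists, beside 0.06 over all genes, and in D2 MSN-like nuclei 0.02, 0.07, 0.07, 0.07 and 0.08 beside 0.04. Of the other GABA-A subunits, 5 of 12 were high enough to be tested in the MSN classes. Gabrb1, a beta subunit, had an estimated change of 0.19 ± 0.085 in D1 (adjusted p 0.524) and 0.23 ± 0.084 in D2 MSN-like nuclei (adjusted p 0.483). Gabrb2, another beta subunit, had estimates of -0.02 in D1 and -0.03 in D2.

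In the other lists no gene passed the adjusted threshold. Among the scaffold and trafficking genes those with the smallest unadjusted p were Lhfpl4 (0.21 ± 0.076, adjusted p 0.426), a partner of synaptic receptors, and Nsf (0.19 ± 0.070, adjusted p 0.436) in D1, and Gphn, the scaffold gephyrin (0.14 ± 0.066, adjusted p 0.610), and Hap1 (0.32 ± 0.16, adjusted p 0.611) in D2 MSN-like nuclei. For GABA-B receptors they were Kctd12 (0.26 ± 0.12, adjusted p 0.533) and the receptor gene Gabbr1 (0.12 ± 0.063, adjusted p 0.558) in D1, and Kctd12 (0.18 ± 0.13, adjusted p 0.736) and Gabbr1 (0.07 ± 0.070, adjusted p 0.839) in D2. Of the chloride carriers, Slc12a2 had an estimated change of 0.12 ± 0.11 (adjusted p 0.745) in D1, and those with the smallest p in D2 were Clcn3 (0.08 ± 0.080, adjusted p 0.811) and Slc12a2 (0.09 ± 0.099, adjusted p 0.836). Of the genes of synthesis and uptake, the synthetic enzyme Gad1 had an estimated change of 0.18 ± 0.095 (adjusted p 0.571) in D1 and Gad2 one of 0.17 ± 0.089 (adjusted p 0.642) in D2. The lowest limma adjusted p in D1 was 0.702 among chloride carriers and 0.488 among genes of synthesis and uptake, for genes not reported here.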

How the data were processed

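Nuclei of dissected, flash-frozen striatum from 3 wild-type and 3 Celsr3 heterozygous libraries were sequenced on 1 lane, per the labels' protocols. Per the submitters' processing notes, Cell Ranger and Seurat 4.1 were used with mm10 (GRCm38). The deposited values are a score: transcript counts corrected for depth and rounded to whole numbers by the authors, judged from the values, whose totals per nucleus vary by 19.4% (coefficient of variation) around library medians of 2432 to 2906. They are not raw counts, so no count model was run; the design had allowed for this. Depth per gene is therefore not known, and the number of nuclei and of libraries sets the precision.

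Doublets were scored per library with scrublet in scanpy 1.11.5 (score above 0.25, or a cluster with over 40% such nuclei). The automatic cutoff of scrublet, which was not the rule used here, marked 0.317% to 0.824% of a library. It marked under 0.5% in 2 of them, where the caller may not have worked, so results were repeated with all nuclei. Nuclei were clustered without GABA-A subunit genes (2000 variable genes, 30 components, 15 neighbours, Leiden resolution 1.0), and 17 classes were named from marker lists. A name needed at least 3 markers over 2-fold at a mean above 0.1. An MSN name also needed an Rgs9 level of at least 0.5 times the overall mean. These naming rules were set after the clusters were seen; 5 clusters stayed unnamed.

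For each library and class the mean value per nucleus was taken. Genes with a mean of at least 0.02 and a summed value averaging at least 30 per library were tested, so a single library could hold less. The test was run on log2(mean + 0.01) with limma 3.58.1 (R 4.3.3, moderated with a trend, two-sided). The p-values were adjusted by Benjamini and Hochberg over all genes of the comparison, at a threshold of 0.05. Fold changes on this scale understate the change of low genes. Tests covered the 14 classes that had 20 or more nuclei in each library, with the Pvalb/Pthlh and Sst/Npy/Nos1 interneurons also apart. The D1 and D2 changes were compared within libraries. The 7 genes and the 5 gene lists were chosen with earlier results of these data known. Of the lists, genes with the 2 smallest p in D1 and D2 MSN-like nuclei and the tested GABA-A subunits are named, except some genes that are not reported here. The fit was tested on simulated data.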

Additional observations from a re-analysis of the deposited data

How the results depend on the processing

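No subunit gene passed the adjusted threshold of 0.05 under any alternative in any of the populations tested, and the lowest adjusted p was 0.1411, for Gabra3 in D1 MSN-like nuclei with array weights (0.4998 without them; 0.1411 to 0.9632 over the alternatives). Counts of called genes moved more. In D1 MSN-like nuclei the count of 2 became 412 with array weights (208 higher) and 4 with equal cluster weights, and ran from 1 to 214 with a library left out. In D2 MSN-like nuclei the count of 1 became 2 without a filter on low values, 4 with the replicate block, 169 with array weights, 2 with doublets kept and 4 with equal cluster weights, and ran from 0 to 121 with a library left out. In the other classes together, without the Pvalb/Pthlh and Sst/Npy/Nos1 interneurons taken apart, the count was 1. It became 16 without a filter, 4 with the replicate block, 11 with array weights and 5 with equal cluster weights. With a library left out it ran from 0 to 32, the 32 without heterozygous replicate 3. Wild-type replicate 1 gave 214 and 121 when left out; the cause was not tested. In all nuclei and for the difference between D1 and D2 the count of called genes was 0 under every alternative. Of the subunit changes given in the report, 536 values under an alternative kept the sign and 41 did not. In all nuclei, Gabra4 (0.01) became -0.064 with size-factor scaling and -0.043 with nuclei of at least 2000 genes, and ran from -0.11 to 0.15 with a library left out. Gabrd there (0.02) became -0.049, -0.028 with array weights and -0.043 with at least 2000 genes, and ran from -0.072 to 0.080. Gabra5 there became -0.068 with equal cluster weights, and Gabra2 ran from -0.16 to 0.073 with a library left out. In D1 MSN-like nuclei, leaving out a library gave -0.10 to 0.038 for Gabra4 and -0.18 to 0.27 for Gabrg1. In D2 MSN-like nuclei it gave -0.074 to 0.20 for Gabra3 (-0.11 with equal cluster weights), -0.25 to 0.35 for Gabrg1 and -0.24 to 0.0074 for Gabra5. In glutamatergic neuron-like nuclei it gave -0.16 to 0.048 for Gabra3. For the difference between the D1 and D2 changes, Gabra5 became -0.00044 with size-factor scaling, -0.076 with array weights and -0.026 with equal cluster weights (-0.049 to 0.095 with a library left out). Gabrg3 became -0.015 with size-factor scaling and -0.0014 with at least 2000 genes (-0.032 to 0.023), and Gabrg1 -0.27 with array weights and -0.031 with equal cluster weights (-0.19 to 0.32). The rank of the class with the highest level, 1 in the report, was 5, 2 and 4 for Gabra2, Gabrg1 and Gabrg3 by the share of nuclei with a value, and 2 for Gabra3 in wild-type libraries alone. Replicate numbers recur in both genotypes. The correlations of same-numbered libraries' deviations were -0.04, 0.14 and -0.07 in all nuclei, 0.27, 0.01 and 0.18 in D1, and 0.26, 0.04 and 0.18 in D2. In D1 and D2, wild-type replicates 1 and 3 correlated best with the heterozygous replicate of the same number, and wild-type replicate 2 with heterozygous replicate 3. In all nuclei only wild-type replicate 2 correlated best with its own number. These values do not show that the numbers pair the libraries. With the replicate block 3 genes were called in D1 and 4 in D2 MSN-like nuclei. The number of libraries, 3 in each group, limits the precision, and depth per gene is not known.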
